A study of Mus musculus with 12 samples.

Results

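The proximal end of the mouse X chromosome, up to 5.6 Mb on mm10, carries the ampliconic Btbd35f genes together with Spin2-ps1 and Mycs. In OCT4 ChIP-seq of iXist-ChrX-Cast cells, 26 of the 2139 X-linked OCT4 consensus peaks (53675 genome-wide) had their midpoint in this interval, and 7 of the 1006 X-linked OCT4 peaks with an allelic ratio did. None of the 211 YY1 peaks with an allelic ratio lay there. Peaks were chosen by position alone, but a peak has a ratio only if it passed the study's filters on allelic fragments and on the day 0 ratio, and the interval was picked with these ratios known. The levels at both days and the changes of these peaks are therefore given as a description. The p-values below do not allow for that choice.

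The cells are female mouse embryonic stem cells of a hybrid strain labelled Dom/129S x Cast, with Xist under a doxycycline-inducible TetOn promoter on the Cast X chromosome. OCT4 was profiled in 2 uninduced libraries (day 0, no doxycycline) and 2 libraries after 6 days in 1 μg/ml doxycycline, and YY1 and input chromatin were sampled at the same days, again with 2 libraries each. Both groups carry the same transgenic allele and were grown on mouse fibroblast feeders, which were removed by pre-plating. The values describe 1 cell line. The allelic ratio is the share of allele-assigned fragments that came from the X chromosome with inducible Xist, Xi/(Xi+Xa), so 0.5 is an even split. The deposited fractions hold no fragment numbers, so the depth behind each ratio is unknown. Around the defining genes of embryonic stem cells, OCT4 consensus peaks lay within 5 kb of Pou5f1 (4 peaks), Nanog (3), Sox2 (5), Esrrb (25), Klf4 (1), Tfcp2l1 (11), Tdgf1 (5) and Zfp42 (3).

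Ampliconic genes are present in many near-identical copies on a sex chromosome, usually through duplication of large segments. Btbd35f genes encode proteins with a BTB domain, a protein interaction module. Spin2 genes belong to the spindlin family, whose Tudor-like domains read methylated histones, and Mycs is an intronless relative of the Myc genes. OCT4 (Pou5f1) is the POU-domain factor of pluripotent cells. It binds octamer sequences, often beside a SOX2 site, and Xist RNA silences the chromosome that makes it.

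Of the 26 OCT4 peaks, 22 fell into 4 sequence families, called A to D here, whose members are linked by alignments to each other. Family A has 7 peaks with 98.4 to 100% identity, family B has 5 peaks (98.4 to 99.6%), family C has 5 (98.7 to 100%) and family D has 5 (90.05 to 100%). These ranges cover only pairs with at least 90% identity over at least 50% of the shorter peak. The low end in family D therefore lies at the cutoff. Peaks 1, 5, 9 and 26 joined no family. All 5 family C peaks held 1 copy of a composite element in which a SOX2-like ATTGT, then 1 base of any kind, then the octamer variant ATGCTAAT follow each other. Its 30-base context was identical in all 5 peaks and is shown once, as the sequence that a whole family shares. It lies at chrX:3323872-3323901 (minus strand) in peak 4 and, on the plus strand, at chrX:4081853-4081882 in peak 10, chrX:4414741-4414770 in peak 13, chrX:4845817-4845846 in peak 19 and chrX:5281569-5281598 in peak 22. The capitals mark the composite element, the sequences read 5′ to 3′ and all come from RefSeq GRCm38.p6, the mm10 build.
Peak 10, chrX:4081853-4081882, + strand: gtctatgtATTGTAATGCTAATtctgtacc

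The copies are 1 sequence repeated, so the 5 matches are not independent. The same element occurred in 8 of the 2113 other X-linked OCT4 peaks (0.379%, in the 300 bases at the peak centre), and 7 of those 8 are further copies of family C. The element was also in the aligned part of 1 of the 2 family C copies in the region that had no OCT4 peak, and of all 4 such copies between 31 and 36 Mb. Copies with a peak and copies without one thus both held it.

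The central bases of the 6 multi-copy peaks with allelic ratios are given next, up to 300 bases on the plus strand. The capitals mark ATGCAAA, an octamer lacking its last base (peaks 9 and 14), ATGCTAAT read on the minus strand (peak 18) and AACAAAG, a SOX2-like sequence (peak 24). In peak 14 the second ATGCAAA is on the minus strand. Peaks 1 and 6 held none of the sequences searched.
Peak 1, chrX:3288791-3289031, + strand: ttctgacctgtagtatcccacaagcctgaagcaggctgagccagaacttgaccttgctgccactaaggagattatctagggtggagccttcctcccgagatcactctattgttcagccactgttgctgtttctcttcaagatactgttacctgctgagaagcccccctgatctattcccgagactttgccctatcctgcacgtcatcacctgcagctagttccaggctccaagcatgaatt
Peak 6, chrX:3849128-3849427, + strand: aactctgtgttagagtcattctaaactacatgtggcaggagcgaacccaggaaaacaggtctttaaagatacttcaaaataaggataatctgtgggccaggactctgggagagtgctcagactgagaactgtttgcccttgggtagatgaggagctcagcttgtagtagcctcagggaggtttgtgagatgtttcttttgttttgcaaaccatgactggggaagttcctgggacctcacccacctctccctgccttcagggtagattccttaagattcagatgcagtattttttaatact
Peak 9, chrX:3961511-3961810, + strand: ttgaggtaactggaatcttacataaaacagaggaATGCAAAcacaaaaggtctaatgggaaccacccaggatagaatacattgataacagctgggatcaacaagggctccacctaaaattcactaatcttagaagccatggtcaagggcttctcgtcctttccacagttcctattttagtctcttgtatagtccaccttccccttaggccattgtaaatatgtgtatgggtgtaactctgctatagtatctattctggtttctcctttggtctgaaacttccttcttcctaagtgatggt
Peak 14, chrX:4420909-4421155, + strand: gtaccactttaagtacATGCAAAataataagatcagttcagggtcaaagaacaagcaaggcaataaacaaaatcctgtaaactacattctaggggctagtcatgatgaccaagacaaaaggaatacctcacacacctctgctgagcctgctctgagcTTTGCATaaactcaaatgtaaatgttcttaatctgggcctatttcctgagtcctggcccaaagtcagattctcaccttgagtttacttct
Peak 18, chrX:4661197-4661496, + strand: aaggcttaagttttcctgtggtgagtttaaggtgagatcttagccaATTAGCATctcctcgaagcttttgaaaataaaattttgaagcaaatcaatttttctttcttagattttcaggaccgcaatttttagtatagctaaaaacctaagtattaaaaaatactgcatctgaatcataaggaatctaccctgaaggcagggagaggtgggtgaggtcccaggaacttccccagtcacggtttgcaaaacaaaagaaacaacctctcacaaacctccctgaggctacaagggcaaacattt
Peak 24, chrX:5311294-5311593, + strand: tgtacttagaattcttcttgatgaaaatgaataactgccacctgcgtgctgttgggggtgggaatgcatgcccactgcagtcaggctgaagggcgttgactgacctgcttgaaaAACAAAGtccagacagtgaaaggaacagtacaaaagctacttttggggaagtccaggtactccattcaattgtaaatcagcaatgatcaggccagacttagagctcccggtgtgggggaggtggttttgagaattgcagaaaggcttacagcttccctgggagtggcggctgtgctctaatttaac

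Searches covered both strands. The full octamer ATGCAAAT was in none of the 26 windows of 300 bases round the peak midpoint, against 8.71% of the other X-linked OCT4 peaks. In peaks narrower than 300 bp the window includes flanking bases. The YY1 core AANATGGC was in none, against 8.23%. ATGCTAAT was in 6 windows (23.1%, against 7.004%), namely the 5 family C peaks, where it is part of the composite element, and peak 18. ATGCAAA, which ATGCAAAT contains, was in 6 windows (23.1%, against 15.6%), namely the 5 family B peaks and peak 9. AACAAAG was in 7 windows (26.9%, against 15.8%), which were the 7 family A peaks. The searches for the composite element, ATGCAAA and AACAAAG were added after the peak sequences had been read. Absence of these letters says nothing about the factor.

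The 4 families recur together. Each has 7 copies in the region, and these 28 copies form 7 repeat units with the same order, C, B, A and D. Units 1 and 2 are reversed relative to the others. OCT4 peaks were called at 22 of the 28 copies, comprising all 7 copies of family A and 5 of 7 in each of families B, C and D. Within a unit, the A and D peaks were 3084 to 3224 bp apart, the B and C peaks 5103 to 5903 bp apart, and the A and B peaks 14479 to 23296 bp apart. Only 4 of the 22 peaks had an allelic ratio, and no unit had more than 1 such peak.

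**Figure D1:**
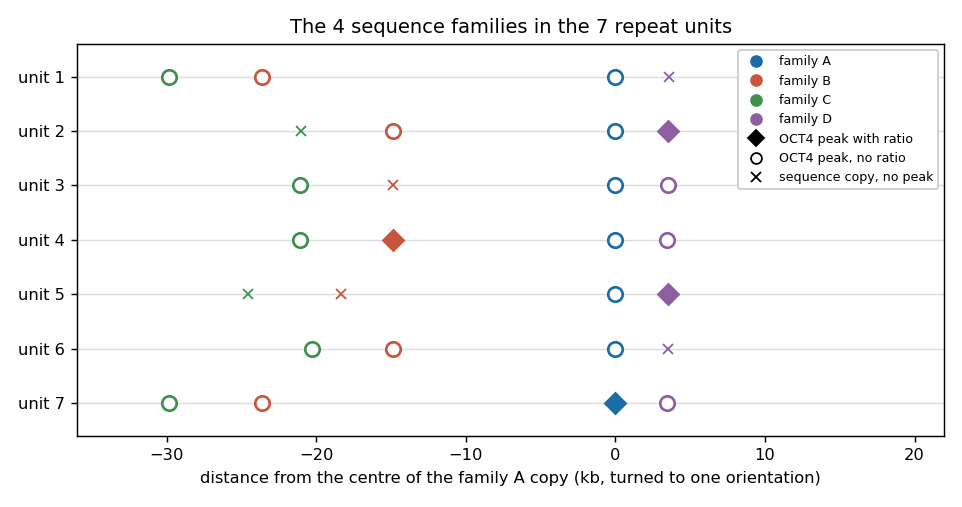
Position of each copy of families A to D in the 7 repeat units, as distance in kb from the centre of the family A copy, with all units turned to one orientation. Diamonds are OCT4 peaks with an allelic ratio (4), open circles OCT4 peaks without one (18) and crosses sequence copies without a peak (6).

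RefSeq places 47 genes in the region, of which 13 are protein-coding, and 12 of the 30 Btbd35f symbols of the X chromosome are among them. The Btbd35f genes examined and Spin2-ps1 are repeated too. Gene matches were counted at 80% identity or more over at least 50% of the gene, and include the gene itself. Peak copies, given below, needed at least 90% identity and exclude the peak itself. Btbd35f11 (chrX:3441731-3443690, minus strand), Btbd35f16 (chrX:3955043-3957002, minus strand), Btbd35f17 (chrX:4370636-4372595, plus strand) and Btbd35f4 (chrX:4800411-4802359, plus strand) each matched 33 loci in the assembly, 14 in the region and 18 between 31 and 36 Mb, with a best match of 99.7 to 100% identity. Spin2-ps1 (chrX:3835879-3836656, minus strand), which RefSeq lists as protein-coding despite its symbol, matched 39 loci, 13 in the region and 22 between 31 and 36 Mb. Its matches to other loci had 85.1 to 99.9% identity. Mycs (chrX:5466904-5469265, minus strand) matched only itself.

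OCT4 peaks were mostly far from these genes. Peak 9 lay 4432 bp from Btbd35f16, and it was the only one of the 26 peaks within 5 kb of a Btbd35f or Spin2 gene or Mycs. No peak lacking a ratio did. Copies of the Spin2-ps1 sequence, whatever their annotation, were closer to family C. The 5 family C peaks lay 3889 to 5807 bp from a copy of the Spin2-ps1 sequence, and the 5 family D peaks 12461 to 24645 bp from one. The copies near family C were diverged, with 85.5 to 86.2% identity to Spin2-ps1, against 98.1 to 100% for those near family D. Family A peaks were 63079 to 160602 bp from the nearest copy of the Btbd35f16 sequence. RefSeq places 7 peaks inside a pseudogene span, 4 of them in Gm14355, and the other 19 between genes.

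How much of each peak is unique at the read length was counted next. Each peak was cut into all words of 81 bases, the read length of the study, and each word was looked up in the 65 primary sequences of the assembly. Only single words inside the peak were counted. The study aligned read pairs, and a mate outside the peak was not taken into account. Nor was the masking of strain variants in the genome that the study aligned to. In 13 of the 26 peaks no word was found only once, and none of these 13 had an allelic ratio. Among other X-linked OCT4 peaks 163 were of this kind, and 2 of them (1.23%) had a ratio. Of 12 peaks with some but under 90% of words found once, 6 had a ratio (50%), beside 110 of 275 other X-linked peaks (40%). Peak 26 alone was single-copy, with 100% of its words found once, and it had a ratio. Of the 28 peaks of families A to D between 31 and 36 Mb, 18 had no word found only once and none of these 18 had a ratio. The median share of words found once was 5.59% over the 26 peaks and 100% over the other 2113, and 26.9% of the 26 had a ratio, against 47.3%.

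**Figure D2:**
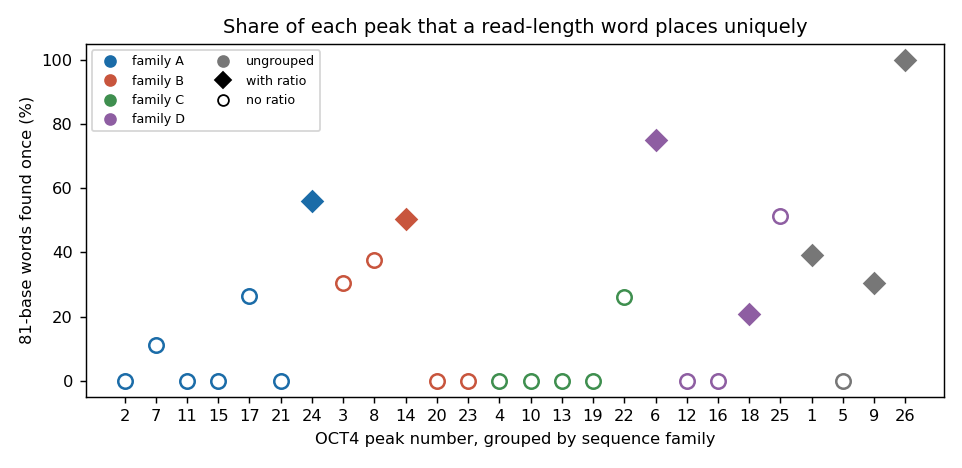
Percent of 81-base words found once in the assembly for each of the 26 OCT4 peaks, grouped by sequence family on the horizontal axis. The 7 peaks with allelic ratios (diamonds) all sit above 0, and 13 of the 19 others (open circles) sit at 0.

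A second copy elsewhere in the assembly, with at least 90% identity over at least 50% of the peak, existed for 25 of the 26 peaks (96.2%), against 644 of 2113 other X-linked peaks (30.5%). The 26 peaks also held more interspersed or simple repeat sequence, with a median of 59.7% of bases soft-masked against 17.8%. They were narrower, with a median of 340.5 bp against 410 bp. Their density from the first sequenced base to the boundary was 10.2 peaks per Mb, against 12.8 over the rest of the chromosome. Of the 6 input-called regions here none overlapped a peak, which the deposited list fixes because the study subtracted input regions from it.

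At day 0, 6 of the 7 peaks with a ratio had a mean above 0.5, that is, more fragments assigned to the X chromosome with inducible Xist, beside 48.4% of the other 999 peaks. By day 6, 1 of the 7 had fallen at an adjusted p under 0.05 (limma, Benjamini-Hochberg over all 1006 peaks) and none had risen. Across all X-linked OCT4 peaks 35.0% fell and 0.0994% rose. Without adjustment, at p under 0.05, 1 of the 7 had fallen and 0 had risen, beside 50.1% and 0.199% of all X-linked peaks. In 2 of the 7, peaks 1 and 26, both day 6 ratios were under both day 0 ratios, which held for 73.0% of all X-linked peaks.

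**Figure D3:**
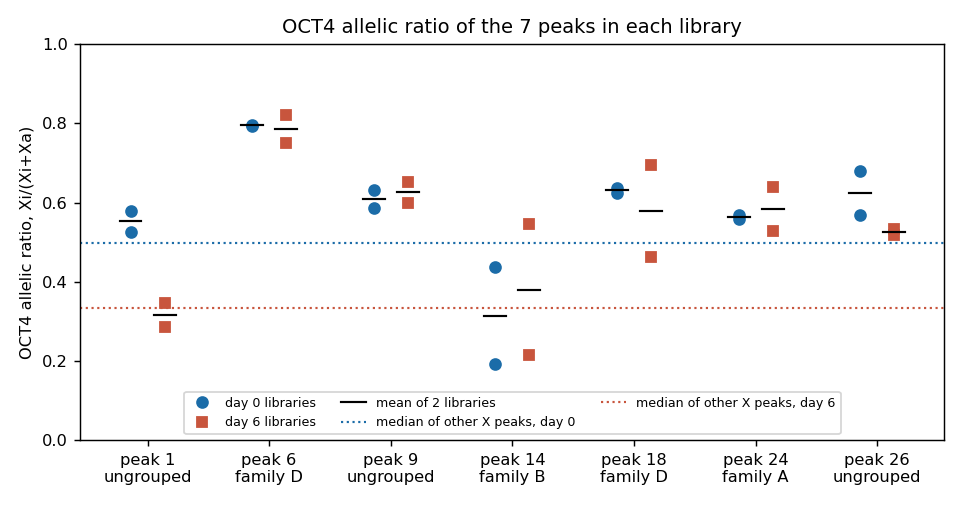
OCT4 allelic ratio of the 7 peaks in each library at day 0 (circles) and day 6 (squares), with black bars for the mean of 2 libraries. Dotted lines are the medians of the other 999 X-linked peaks at day 0 (0.498) and day 6 (0.3333), and only peaks 1 and 26 have separated days.

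Peak 1 (chrX:3288791-3289031, intergenic, 11180 bp from the pseudogene Gm14332) was the peak that fell. The uninduced libraries gave 0.579 and 0.526, the induced libraries 0.286 and 0.348. Both induced libraries were below both uninduced ones, a change of -0.236 ± 0.0570 (SE, limma adjusted p = 0.0252). It belonged to no family, but it has 89 other copies in the assembly, 8 of them in the region, and 39.1% of its words were found once. The call was lost without either day 0 library or without day 6 replicate 1 (limma adjusted p 0.0548 to 0.115), and it held without day 6 replicate 2.

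Peak 6 (chrX:3849117-3849437, family D, within the pseudogene Gm14355 and 12461 bp from Spin2-ps1) had the highest ratio of the 7. It measured 0.797 and 0.793 before induction, then 0.821 and 0.750. The days overlapped and the libraries stayed near 0.8 throughout (change -0.0096 ± 0.0560, SE, limma adjusted p = 0.899). Its day 0 mean of 0.795 lies just inside the upper limit of 0.8 that the study set for keeping a peak.

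Peak 18 (chrX:4661188-4661504, intergenic) lay 11877 bp from its nearest gene, Gm46682, and 138907 bp from the nearest protein-coding gene, Btbd35f4. The other family D peak with a ratio, it had a lower day 0 mean than peak 6. Both day 0 libraries were close, at 0.625 and 0.636, while day 6 gave 0.462 and 0.696. The induced libraries lay on either side of the uninduced ones (change -0.0521 ± 0.0812, SE, limma adjusted p = 0.616).

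Peak 9 (chrX:3961434-3961887) lies within the span of the lncRNA Gm46693, 4432 bp from Btbd35f16. Before induction the libraries read 0.586 and 0.632, and after it 0.600 and 0.652, so the days overlapped (change 0.0172 ± 0.0558, SE, limma adjusted p = 0.814). Its sequence is a dispersed repeat with 320 other copies in the assembly, 41 on the X chromosome and none of those in the region.

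Peak 24 (chrX:5311152-5311735, intergenic) lay 27123 bp from its nearest gene, Gm5924, and 155169 bp from the nearest protein-coding gene, Mycs. It was the only family A peak with a ratio. Uninduced libraries gave 0.568 and 0.558 and induced ones 0.640 and 0.528, with one induced library above and the other below both uninduced libraries (change 0.0208 ± 0.0605, SE, limma adjusted p = 0.791). It was also the widest of the family at 584 bp, with the largest share of words found once in family A, 56.2%.

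Peak 14 (chrX:4420909-4421155, intergenic) lay 10717 bp from its nearest gene, Gm6019, and 48314 bp from the nearest protein-coding gene, Btbd35f17. The only family B peak with a ratio, it did not repeat between libraries. The day 0 pair was 0.192 and 0.438, the day 6 pair 0.545 and 0.214. Replicates differed by 0.245 and 0.331, more than in 97.5% and 98.4% of all X-linked peaks with ratios, and the change of 0.0650 ± 0.121 (SE, limma adjusted p = 0.673) was smaller than either gap.

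Peak 26 (chrX:5435528-5436320, intergenic, 30584 bp from Mycs), the single-copy peak, gave 0.680 and 0.569 in the uninduced pair and 0.519 and 0.533 in the induced pair. Both induced libraries were below both uninduced ones. The change of -0.0984 ± 0.0605 (SE) did not pass the test (limma adjusted p = 0.215). It was -0.0428 without day 0 replicate 1 and -0.154 without day 0 replicate 2.

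Peak 26 is also the last peak inside the boundary. The next peak outside, at chrX:5752482-5752849, had no ratio. The first peaks outside with one were at chrX:5925844-5926107, with 0.478 and 0.474 before and 0.379 and 0.231 after induction, and at chrX:5949479-5950014, with 0.222 and 0.404, then 0.231 and 0.353. YY1 had its nearest ratio at chrX:6082759-6083371, where the uninduced libraries measured 0.591 and 0.581 and the induced ones 0.379 and 0.348.

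The median over the 7 peaks was 0.586 and 0.569 before induction, against 0.545 and 0.533 after 6 days. Both induced medians were lower, and their mean fell by 0.0383. Over the other 999 peaks the medians were 0.496 and 0.500 uninduced and 0.3333 in both day 6 libraries. The excess of the 7 peaks over the others was thus 0.0901 and 0.0691 without doxycycline and 0.212 and 0.200 with it, a rise of 0.126. An exact two-sided permutation test over the 4 libraries gave p = 0.3333 for both the median and the excess, the smallest p that 2 against 2 libraries allow, so neither can pass 0.05. At day 6, 5 of the 7 peaks had a mean above that of at least 91% of all X-linked peaks with ratios, and peaks 1 and 14 did not. These 5 peaks were already high at day 0, when their means were above those of 75.0% (peak 24) to 99.9% (peak 6) of the peaks.

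**Figure D4:**
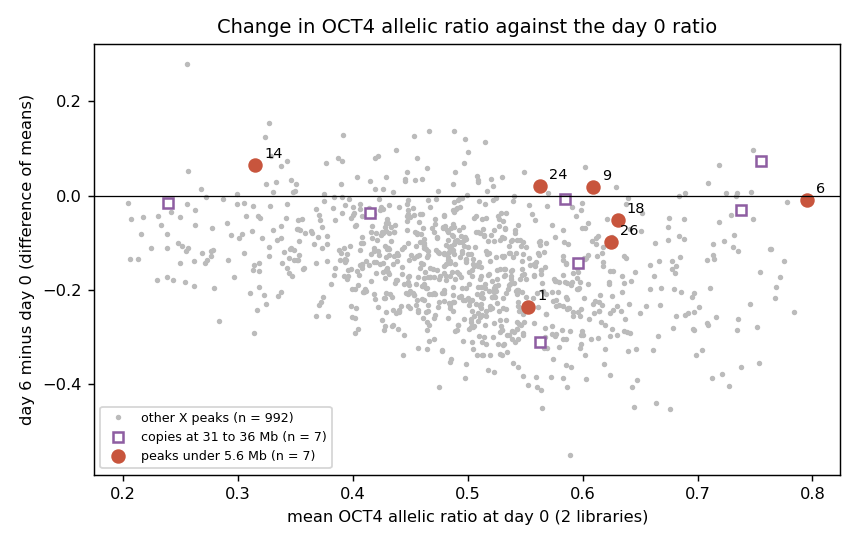
Day 6 minus day 0 OCT4 allelic ratio against the mean day 0 ratio for all 1006 X-linked peaks, with the 7 peaks under 5.6 Mb as filled circles, numbered, and the 7 copies at 31 to 36 Mb as open squares. Peak 1 is the lowest of the 7 numbered points, and peaks 9, 14 and 24 lie above 0.

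The closest comparison is a second array. Between 31 and 36 Mb the 4 families have 41 more copies, 28 of them with an OCT4 peak and 7 with a ratio. The medians over these 7 peaks were 0.625 and 0.559 in uninduced libraries, then 0.483 and 0.500. Of these, 6 had a lower mean at day 6, against 4 of the 7 under 5.6 Mb and 93.1% of other X-linked peaks. Peaks 1, 9 and 26, which are under 5.6 Mb, belong to none of the 4 families. The family copies there, peaks 6, 14, 18 and 24, changed by -0.0096, 0.0650, -0.0521 and 0.0208. The mean of the medians dropped by 0.101 in the second array, while that of the other X-linked peaks dropped by 0.165. The median of the per-peak changes was -0.0304 in the second array, -0.0096 over the 7 peaks under 5.6 Mb and -0.150 over the other X-linked peaks. The difference between the 2 sets of 7 peaks was not tested.

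Copies of one family did not share one ratio. In family D, the copy at chrX:31241751-31242085 went from 0.567 and 0.559 to 0.273 and 0.231. Both induced libraries there were far below both uninduced ones, whereas peaks 6 and 18 had overlapping days. Family D at chrX:34257744-34258173 gave 0.725 and 0.750, then 0.783 and 0.632. This pattern, high at both days with overlap, was that of peak 6.

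Family C, which had no ratio in the proximal array, had a single one in the second, at chrX:33824529-33824876. Its uninduced libraries gave 0.714 and 0.795, its induced ones 0.857 and 0.80, and both induced values exceeded both uninduced ones. Family A at chrX:33383105-33383607 was skewed the other way, with 0.255 and 0.224 uninduced and 0.279 and 0.167 induced. Only 3.31% of its words were found once.

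Other X-linked peaks were also unique only in part. Over 112 other X-linked peaks with ratios and under 90% of words found once, the median ratio was 0.460 and 0.456 uninduced and 0.331 and 0.3333 once induced. The 112 include the 7 peaks of the second array. The multi-copy peaks with ratios under 5.6 Mb had 20.7 to 75.1% of words found once, and the 112 were not matched to them on this share. Over 887 with at least 90%, the median ratio was 0.500 and 0.500, then 0.339 and 0.3333. For 15 peaks nearest genes of other multi-copy X families such as Rhox, Xlr and Magea, it was 0.507 and 0.469, then 0.344 and 0.364. In each of these sets both day 6 medians were below both day 0 medians. The part of read placement among copies in the ratios of the proximal array was not tested. The number of copies on the X chromosomes of the parental strains was not analysed here, since positions and copies were counted in the reference genome.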

How the data were processed

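OCT4 and YY1 ChIP-seq and input libraries of iXist-ChrX-Cast mESCs were used, 2 per day and antibody. The deposited OCT4 ratio columns carry a clone name that the labels do not explain, and were matched to the OCT4 libraries, all labelled iXist-ChrX-Cast, by factor, day and replicate. That the Xi of these ratios is the Cast X chromosome rests on this match. Per the study's methods and the submitters' processing notes, the authors aligned paired reads of 81 bases with Bowtie2 2.3.5.1 to mm10 masked at variants between the parental strains, removed duplicates with Picard, split alleles with SNPsplit, called peaks with MACS2 in each library and kept regions found in at least 2 libraries, less input peaks. The sources used here give no mapping quality filter. The deposited allelic values are fractions, Xi/(Xi+Xa), of peaks with over 10 allelic fragments in over 80% of samples and a day 0 ratio between 0.2 and 0.8. No fragment counts were used, so depth and counting intervals cannot be given. The deposited consensus and input lists hold positions only, pooled over libraries.

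Ratios were fitted by R 4.3.3 and its package limma 3.58.1 (a linear model with moderated variances, no replicate block, Benjamini-Hochberg over all 1006 OCT4 peaks, threshold 0.05), tested first on simulated ratios. The labels do not say that replicates are separate cultures, so p-values measure only the spread between these libraries. Copies were blastn 2.17.0 alignments to GRCm38.p6. Families are peaks linked by such alignments to each other. Every peak with a ratio under 5.6 Mb is named with its nearest gene. Peaks without ratios were to be named within 5 kb of a Btbd35f or Spin2 gene or Mycs, and sequences shown for peaks with ratios that hold a motif or a copy. Members and lists were chosen with earlier results of these data known.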

Additional observations from a re-analysis of the deposited data

How the results depend on the processing

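The count of 1 fallen peak of 7 became 0 at a threshold of 0.01 and ranged from 0 to 1 when each library was left out. The count over all 1006 peaks went from 352 to 0 at 0.01, to 1 without day 0 replicate 1, to 0 without day 0 replicate 2, and to 287 and 288 without either day 6 library. A fit that leaves out 1 library assumes that the lone one varies like the other day's pair. With the replicate number as a block, 1 of 7 and 274 of 1006 peaks fell. Replicate 1 deviations at day 0 and day 6 correlated at -0.0217 over 1006 peaks. The labels do not say whether a number marks a shared culture. On the logit scale 264 peaks fell, 1 of them of the 7. Leaving out libraries, the change ranged from -0.0449 to 0.0257 at peak 6, -0.00889 to 0.0433 at peak 9, -0.101 to 0.231 at peak 14, -0.169 to 0.0650 at peak 18 and -0.0350 to 0.0767 at peak 24, so the sign of these 5 is not settled. It ranged from -0.267 to -0.205 at peak 1 and from -0.154 to -0.0428 at peak 26. The change of the median, -0.0383 with all choices as reported, was -0.0101 with the boundary at 5.0 Mb, -0.0449 at 6.0 Mb, -0.0419 for the mean and -0.0984 for peak 26, the one peak with at least 90% of words found once. It was -0.0268 without peak 14, an alternative chosen after seeing the data. The excess over other peaks rose in all of these, by 0.0667 to 0.156. By distance to the transcription start, 4 peaks instead of 1 were nearest a Btbd35f, Spin2 or Mycs gene. A copy of at least 99% identity existed for 19 peaks. The YY1 alternatives were not run, because no YY1 ratio lies in the region.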
